A study of Mus musculus with 10 samples.

Results

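The chemoattractant receptors of neutrophils described here are *Cxcr2*, *Cxcr4*, *Fpr1*, *Fpr2*, *C5ar1*, *C3ar1*, *Ltb4r1*, *Ccr1*, *Ptafr* and *Ccrl2*. They were chosen by gene symbol, and all 10 were among the 13091 genes of the tables. The data are mRNA sequencing of neutrophils differentiated in culture from HoxB8-immortalized progenitors. The progenitors are mouse bone marrow cells kept dividing by a HoxB8 protein, added with a lentivirus, that needs estrogen. They mature when the hormone is withdrawn and IL-3 and granulocyte colony-stimulating factor are added. There were 2 libraries of unstimulated *Vim*+/+ neutrophils, 2 of *Vim*+/+ neutrophils after LPS, 3 of unstimulated *Vim*-/- neutrophils and 3 of *Vim*-/- neutrophils after LPS, where LPS was given at 25 ng/mL for 1 hour. The strain is labelled 129-SVEV in every group. Progenitors were expanded from single sorted cells, so each line is 1 clone, and whether the replicates of a group are separate clones is not given in the sources used here. The labels call the cells without vimentin a knockdown, whereas the study derived them from knockout mice.

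The question behind the design is how the loss of vimentin and the addition of LPS alter gene expression, but the values used here cannot answer it for these receptors. For each gene the authors' tables give 1 mean of the normalized counts over the libraries they fitted, whose number is not stated, the same in all 4 tables for all 13091 genes, and otherwise the results of the authors' own comparisons, which were not used. Since 1 mean serves all 4 tables, it is read as pooled over both genotypes and over cells with and without LPS. The means carry no replicate error and no depth per library, and no difference between groups or between genes was tested. What the means do show is how abundant each receptor mRNA was in these neutrophils as a whole, beside its relatives, its ligands and its signalling partners.

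Chemoattractant receptors are membrane proteins that cross the membrane several times and, with a few exceptions, signal through heterotrimeric G proteins of the Gi class. Neutrophils use them to leave the bone marrow, to crawl toward infected or injured tissue and to prime their killing functions. Ligands fall into chemokines, formylated peptides released by bacteria and mitochondria, complement fragments, and lipids such as leukotriene B4 and platelet-activating factor. Swarming, in which neutrophils recruit each other to 1 site, relies in part on leukotriene B4 and CXCR2 ligands.

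Levels are given as mean normalized count per kb of the longest annotated transcript unless another scale is named, since longer transcripts give more reads. Undivided counts are given beside them to show where the order of genes depends on length. On this scale the median of the 12318 genes with a length was 309 and the 90th percentile was 2983. Of the 10 receptors, 9 lay above the 90th percentile, from 4356 for *Ptafr* to 16903 for *Cxcr4*, a 3.88-fold range. *C3ar1* stood apart at 246, below the median gene and 17.7-fold lower than *Ptafr*. Without length division *C3ar1* lay above the median gene, at the 53.0th percentile, and 10.7-fold below the lowest of the other 9. Together the 10 genes took 0.325% of all normalized counts.

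**Figure D1:**
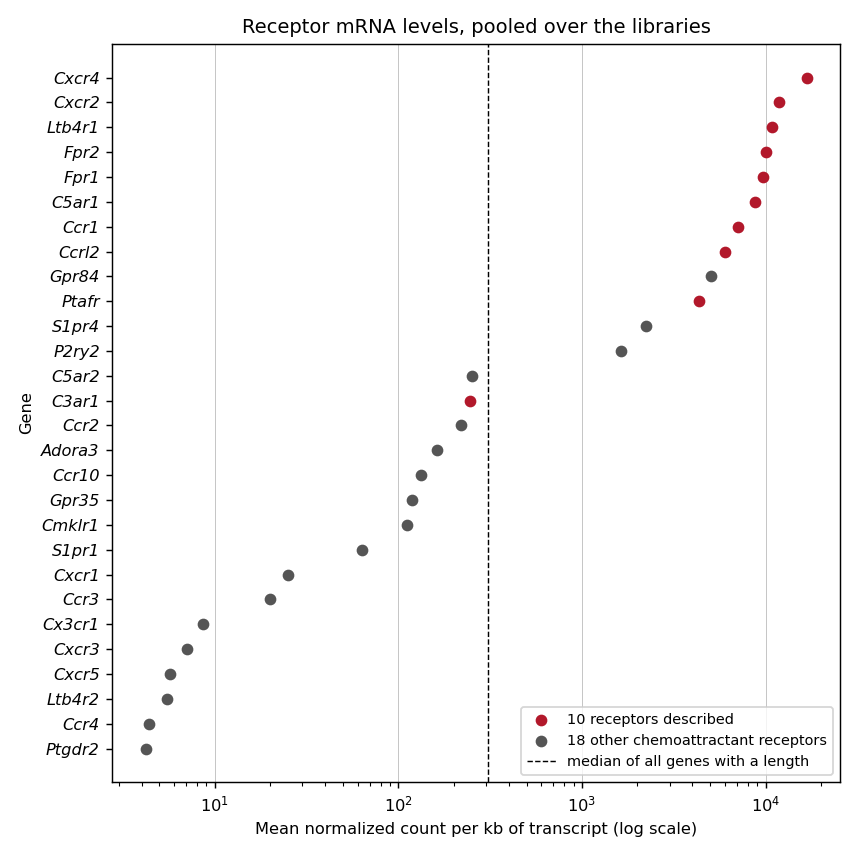
Mean normalized count per kb of the longest transcript on a log scale, 1 value per gene pooled over the libraries, for the 10 receptors described (red) and 18 other chemoattractant receptors listed in the tables (grey), with the median of all genes with a length as a dashed line. Of the receptors described, 9 sit between 4356 and 16903, and *C3ar1* sits at 246, left of the dashed line.

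The chemokine receptors CXCR4 and CXCR2 had the highest levels. *Cxcr4* binds CXCL12 and retains neutrophils and their precursors in the bone marrow. Its mean normalized count was 30510, and its level of 16903 per kb was the highest of the 10, above 98.2% of all genes with a length. *Cxcr2* binds the ELR+ chemokines that release neutrophils into blood and draw them into tissue. *Cxcr2* had the highest mean normalized count at 36262, but its longest transcript is 3046 bases against 1805 for *Cxcr4*, so its level was 11905 per kb, above 97.5% of genes. The order of this pair therefore depends on the length used, with a ratio of *Cxcr2* to *Cxcr4* of 0.704 per kb of transcript and 1.19 per kb of coding length, which is 1077 bases for both.

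*Ccr1*, a receptor for CCL3 and related chemokines, had a mean normalized count of 20184 and a level of 7125 per kb, above 95.9% of genes. *Ccrl2* is an atypical receptor that binds chemerin without signalling itself. Its mean normalized count was 14878 and its level 6051 per kb, above 95.2% of genes.

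The formyl peptide receptors were nearly equal on these means. *Fpr1*, the high-affinity receptor for formylated peptides, had a mean normalized count of 12859 and 9713 per kb, and *Fpr2*, which also binds annexin A1, cathelicidin and serum amyloid A, had 11348 and 10016 per kb. The ratio of *Fpr2* to *Fpr1* was 1.03 per kb of transcript and 0.915 per kb of coding length, and with no error on either mean the pair cannot be ordered.

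Of the complement receptors, *C5ar1*, the receptor for C5a, had a mean normalized count of 22269 and 8768 per kb, above 96.7% of genes. *C3ar1*, the receptor for C3a, had a mean normalized count of 1059 over its 4305-base transcript, and its level was above 45.2% of genes. *C5ar1* was thus 35.6-fold higher than *C3ar1* per kb of transcript and 28.6-fold higher per kb of coding length.

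The lipid receptors were *Ltb4r1*, the high-affinity receptor for leukotriene B4, and *Ptafr*, the receptor for platelet-activating factor. Their mean normalized counts were 15046 and 15844. Because the transcript of *Ltb4r1* is 1394 bases and that of *Ptafr* 3637 bases, *Ltb4r1* was the third highest of the 10 per kb of transcript at 10794 and *Ptafr* the ninth at 4356. Per kb of coding length the order of the pair turned, with *Ptafr* at 15488 and *Ltb4r1* at 14289.

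**Figure D2:**
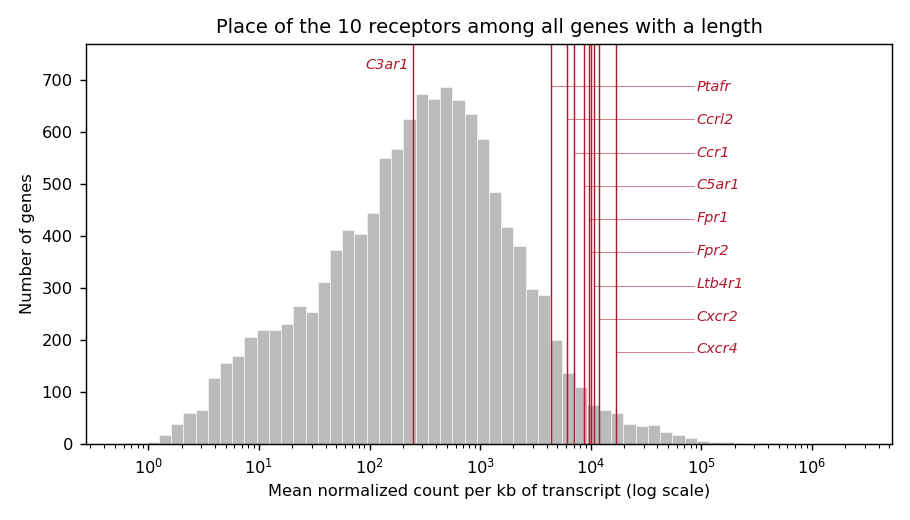
Number of genes against mean normalized count per kb of the longest transcript (log scale) for the 12318 genes with a length (grey bars), with each of the 10 receptors as a red line. The line of *C3ar1* falls near the peak of the distribution at 246, and the other 9 fall in its upper tail from 4356.

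Receptors can share reads with close relatives, which decides how far a mean belongs to 1 gene. The annotation counted on and the treatment of reads with several matches are not given in the sources used here, so the transcripts of GENCODE M21 (GRCm38, the build equivalent to mm10) were searched for windows of 50 bases that also occur in another gene's transcript, on either strand. No such window was found in *Cxcr4*, *C5ar1*, *C3ar1*, *Ltb4r1*, *Ccr1* or *Ccrl2*. In *Cxcr2* 203 of 2997 windows (6.77%) and in *Ptafr* 59 of 3588 (1.64%) occurred elsewhere, none of them touching the coding part. *Fpr1* shared 1 of 1275 windows, with *Fpr2*.

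*Fpr2* was the exception, with 403 of 1084 windows (37.2%) found elsewhere, all touching its coding part. Most of these, 368, occur in *Gm5966*, an unprocessed pseudogene on chromosome 17 from 17920269 to 17921301, 26.3 kb beyond *Fpr2*, and 77 occur in *Fpr3*. Neither *Gm5966* nor *Fpr3* was listed in the tables. The share fell to 15.4% for windows of 100 bases and 1.63% for windows of 150 bases, the length of 1 read before trimming. The annotated span of *Fpr3* also overlaps *Fpr2* on the same strand. The level of *Fpr2* is therefore less certain than that of the other 9.

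The longest stretches of coding sequence shared by related receptors are printed to show how alike related members are at their most similar point. All 4 runs are shorter than a read of 150 bases, so a read across one can still differ in the bases around it. Capitals mark the identical run and lower case the 20 bases on either side, 5′ to 3′ on the coding strand, and all lie within 1 coding exon of GRCm38. *Fpr1* and *Fpr2* share a run of 50 bases:
Fpr1 (chr17:17877260-17877349, - strand): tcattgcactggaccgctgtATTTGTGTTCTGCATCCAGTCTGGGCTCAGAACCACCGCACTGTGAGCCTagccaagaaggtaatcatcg
Fpr2 (chr17:17893096-17893185, + strand): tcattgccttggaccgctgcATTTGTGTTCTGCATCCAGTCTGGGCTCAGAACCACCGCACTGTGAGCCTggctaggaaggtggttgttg

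*Fpr2* and *Fpr3* share a run of 94 bases, the longest found between the pairs of coding sequences compared:
Fpr2 (chr17:17892940-17893073, + strand): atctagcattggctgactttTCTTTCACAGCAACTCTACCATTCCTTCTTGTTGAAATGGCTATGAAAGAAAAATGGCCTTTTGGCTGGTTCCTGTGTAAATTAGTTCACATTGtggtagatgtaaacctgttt
Fpr3 (chr17:17970665-17970798, + strand): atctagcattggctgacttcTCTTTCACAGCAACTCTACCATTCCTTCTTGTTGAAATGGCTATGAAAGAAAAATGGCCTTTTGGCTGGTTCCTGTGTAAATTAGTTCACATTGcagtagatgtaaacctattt

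*Ccr1* shares a run of 47 bases with *Ccr3*, the eotaxin receptor:
Ccr1 (chr9:123963591-123963677, - strand): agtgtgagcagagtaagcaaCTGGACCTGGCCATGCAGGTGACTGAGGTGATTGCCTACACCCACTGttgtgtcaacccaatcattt
Ccr3 (chr9:124029456-124029542, + strand): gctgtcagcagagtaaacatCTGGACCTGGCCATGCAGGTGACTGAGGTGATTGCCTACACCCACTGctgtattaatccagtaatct

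*Cxcr2* and *Cxcr1* share a run of only 14 bases:
Cxcr2 (chr1:74159259-74159312, + strand): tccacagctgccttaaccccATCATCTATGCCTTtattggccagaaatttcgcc
Cxcr1 (chr1:74191907-74191960, - strand): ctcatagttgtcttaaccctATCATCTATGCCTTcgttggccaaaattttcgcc

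Most of the 10 receptors lie beside a related receptor, and the means show how unequal such neighbours were. On chromosome 1, *Cxcr2* (74153989 to 74161246) lies 30.5 kb from *Cxcr1*, which shares its ligands. *Cxcr1* had a mean normalized count of 36.3, and *Cxcr2* was 476-fold higher per kb of transcript and 978-fold higher per kb of coding length. On chromosome 14, *Ltb4r1* (55765962 to 55768494) lies 0.824 kb from *Ltb4r2*, the low-affinity leukotriene B4 receptor, whose mean normalized count was 20.3. *Ltb4r1* was 1966-fold higher per kb of the longest transcript, 764-fold per kb of the principal transcript and 759-fold per kb of coding length. Which of these 2 pairs had the wider gap in level depends on the length used. Without length division *Cxcr1* lay above only 12.8% of genes and *Ltb4r2* above 7.52%. The folds over these 2 genes thus rest on low means of unknown error and are rough. On chromosome 7, *C5ar1* (16246743 to 16259540) lies 2.59 kb from *C5ar2*, a C5a receptor that does not couple to G proteins. *C5ar2* had a mean normalized count of 867, and *C5ar1* was 34.7-fold higher per kb.

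On chromosome 9, *Ccr1* (123962124 to 123968692) lies in a cluster of chemokine receptors. Of its relatives within 500 kb, *Ccr3* stood at 20.1 and *Ccr2* at 219 per kb, against 7125 for *Ccr1*. *Ccr1* was 355-fold higher than *Ccr3*, a rough figure since the mean normalized count of *Ccr3* was only 65.6. *Ccr1* was 32.5-fold higher than *Ccr2* per kb of transcript and 16.9-fold higher per kb of coding length. *Ccr1l1*, *Xcr1*, *Cxcr6* and *Ccr9* of the same cluster were not listed in the tables. *Ccrl2* lies on the same chromosome but apart from them (111054486 to 111057519).

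*Fpr1* and *Fpr2* were the only neighbours listed that had like levels. They lie on chromosome 17 in opposite directions, *Fpr1* from 17876471 to 17883940 and *Fpr2* from 17887824 to 17893952, with their starts 3.88 kb apart. *Cxcr4* (chromosome 1, 128588199 to 128592293), *C3ar1* (chromosome 6, 122847138 to 122856161) and *Ptafr* (chromosome 4, 132564067 to 132582683) have no other receptor of the lists within 500 kb. All positions are those of GENCODE M21 on GRCm38.

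**Figure D3:**
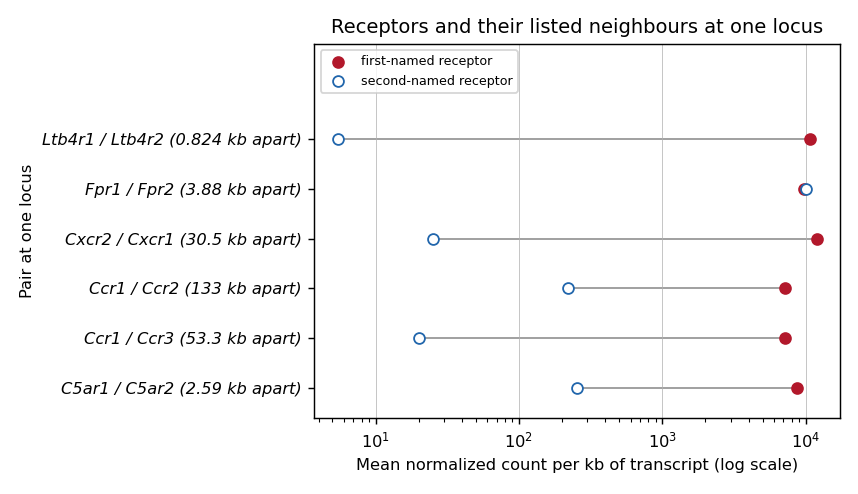
Mean normalized count per kb of the longest transcript (log scale) for receptors that lie within 500 kb of each other, for pairs with both genes listed in the tables, each pair on 1 line with the distance between the genes. The first-named receptor is filled red and the second open blue, and only the points of *Fpr1* and *Fpr2*, at 9713 and 10016, lie side by side.

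A wider list of 37 other chemoattractant receptors placed the 10 in context. Of these, 19 were listed in the tables and 18 were not, among them *Ccr6*, *Ccr7*, *Ackr3* and *Fpr3*. A gene that is not listed may have been removed for low counts, but the filter is not given in the sources used here and no level can be stated for it. The 19 listed receptors had a median of 112 per kb, against 9240 for the 10, and 8 of the 19 had a mean normalized count under 100. Since the 10 were named as receptors of neutrophils, this gap describes the choice of genes and was not tested.

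Among the 19, *Gpr84*, a receptor for medium-chain fatty acids, was the highest at 5068 per kb and lay above *Ptafr*, though below it per kb of coding length. *S1pr4*, a sphingosine-1-phosphate receptor, followed at 2229 and *P2ry2*, a receptor for extracellular ATP and UTP, at 1632. *C5ar2* at 253 was close to *C3ar1*. *Ccr2*, *Adora3*, *Ccr10*, *Gpr35* and *Cmklr1* ranged from 219 down to 112. *Cmklr1* is the signalling receptor for chemerin, and *Ccrl2*, which presents chemerin, was 54.1-fold higher. Lower still were *S1pr1* at 63.5 and *Cxcr1*, *Ccr3*, *Cx3cr1*, *Cxcr3*, *Cxcr5*, *Ltb4r2*, *Ccr4* and *Ptgdr2*, from 25.0 down to 4.20.

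Ligands of these receptors, and the enzymes that make the lipid ligands, were also examined, since neutrophils produce many of them. Of 22 such genes 18 were listed, and their median level was 5608 per kb. *Camp*, which encodes cathelicidin, stood at 133544 and *Anxa1*, which encodes annexin A1, at 105841, and both are sources of FPR2 ligands. These were the highest per kb of transcript, whereas *Ccl6* was the highest per kb of coding length and *Anxa1* without length division. *Saa3*, a serum amyloid A, stood at 8960 per kb of its longest transcript and 35517 per kb of its principal transcript. Of the CC chemokines, several of which bind CCR1, *Ccl6* stood at 82613, *Ccl3* at 29390, *Ccl9* at 4577, *Ccl4* at 1113 and *Ccl5* at 39.7. Of the related CXC chemokines, several of which bind CXCR2, *Cxcl2* stood at 6639, *Ppbp* at 98.1, *Cxcl3* at 68.4 and *Pf4* at 64.8, while *Cxcl1* and *Cxcl5* were not listed. Per kb of the principal transcript *Cxcl2* stood at 12367 and *Cxcl3* at 236. These means include the libraries of LPS-treated cells.

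*C3* was far more abundant than its receptor. *C3*, the source of C3a, had a level of 28534 per kb, 116-fold above *C3ar1* per kb of transcript and 39.7-fold per kb of coding length. *Hc*, which encodes the C5 protein from which C5a is cut, was at 3.04 per kb, although *C5ar1* was among the abundant receptors. *Cxcl12*, the ligand of CXCR4, and *Rarres2*, which encodes chemerin, were not listed. The leukotriene B4 pathway was present from enzyme to receptor, with *Alox5* (5-lipoxygenase) at 1458, *Alox5ap* (its activating protein) at 63276, *Lta4h* (leukotriene A4 hydrolase) at 9367 and *Ltb4r1* at 10794 per kb, with *Lta4h* at 14888 per kb of its principal transcript. *Lpcat2*, which makes platelet-activating factor, was at 4328 per kb of transcript and 7454 per kb of coding length, against 4356 and 15488 for *Ptafr*.

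The shared signalling machinery of the receptors was well represented, with 27 of 28 genes listed and 26 of them above the median gene. *Gnai2*, the main Gi alpha subunit of leukocytes, stood at 47615 per kb, against 3245 for *Gnai3*, while *Gnai1* was not listed. *Rac2*, the Rac GTPase of blood cells, stood at 34961 per kb, below *Gnai2*, but was above it without length division and per kb of coding length. *Arrb2*, a beta-arrestin that turns receptors off and carries them inward, stood at 21660. *Gnb2*, a G protein beta subunit, stood at 13834 and *Grk2* (listed under its older symbol *Adrbk1*), a kinase that desensitizes receptors, at 12384. *Rgs1*, a regulator that speeds the shut-off of Gi, was the lowest per kb of transcript at 123.

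**Figure D4:**
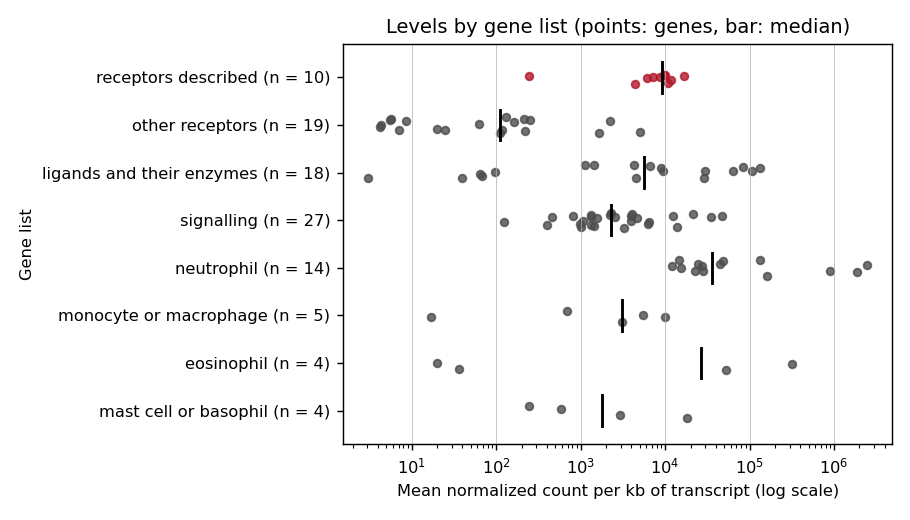
Mean normalized count per kb of the longest transcript (log scale) by gene list, each point 1 gene and each bar the median of the listed genes. The medians are 9240 for the receptors described, 112 for the other receptors, 5608 for the ligands and their enzymes, 2270 for signalling and 36306 for the neutrophil markers.

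The identity of the cells bears on receptor levels, since several of the 10 are also made by other myeloid cells. All 14 neutrophil markers were listed and lay above 97.5% of genes or more, led by *S100a9* at 2487150, *S100a8* at 1883890 and *Ngp* at 906294 per kb. *Ly6g* stood at 12086. Eosinophil granule genes were also high, *Prg2* at 320189 and *Epx* at 53096, whereas the eosinophil receptors *Ccr3* and *Il5ra* were at 20.1 and 36.7. The monocyte or macrophage markers named were *Ly6c2* at 9881, *Cd68* at 5450, *Adgre1* at 3111, *Csf1r* at 695 and *Mrc1* at 16.9.

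Of the mast cell or basophil markers, *Cpa3* stood at 18148, *Mcpt8* at 2965 and *Gata2* at 582, and *Ms4a2* was at 248. Among progenitor markers *Hoxb8* stood at 3262, *Cd34* at 837 and *Kit* at 205. A lentivirus had added HoxB8 to these cells, and reads of the added and the native gene were not told apart. The level of *Hoxb8* therefore cannot be read as that of a progenitor marker. *Itga2b* at 1897 was the only megakaryocyte marker above the median gene, with *Pf4* at 64.8 and *Gp1bb* at 20.7. The T cell, B cell and dendritic cell markers that were listed, *Cd3d* at 155, *Cd79a* at 57.5 and *Itgax* at 65.4, were below it, and the 3 erythroid markers were not listed. The part of other myeloid cells in the receptor levels was not tested. In bulk RNA, more cells that express a receptor and more of its mRNA per cell cannot be told apart.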

How the data were processed

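The libraries were made from polyadenylated RNA of 10 cultures in 4 groups, taken from the sample titles. The authors trimmed reads with Cutadapt 4.4, used STAR 2.7.10b for alignment to mm10 and for counting, and estimated 4 covariates of unwanted variation with RUVSeq. The authors then normalized the counts and fitted their model with DESeq2 1.26.0 (versions from the submitters' processing notes). The signal in the deposited tables is baseMean, the mean of the authors' normalized counts over the libraries fitted, of unstated number. The other 9 columns of each table hold the authors' comparisons (log2 fold changes, standard errors, Wald statistics, p-values, adjusted p-values and labels made from them) and were not used, so no test between groups was made. The model planned for values per sample was not run. There were 0 columns of values per sample.

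Means were divided by the longest transcript length in GENCODE M21, matched by symbol for 12318 of 13091 genes (94.1%), 272 of them through an older symbol in RefSeq (GRCm38.p6). The length column of the RefSeq table spans introns and was not used. The percentile of a gene is the share of genes with a length that lie below it, a calculation tested on simulated data. Without length division the share is of all 13091 genes, and per kb of coding length it is of genes with a coding length. Other lengths and filters on low means were tried. An alignment of proteins was planned but not made, since protein sequences were not used here, and shared windows of transcripts took its place. The members and lists were chosen with earlier results of these data known. Named are the 10 receptors, other receptors listed in the tables, and from the other lists the 3 or 5 highest genes with those that pair with a receptor. Results for some genes of the lists are not reported here. Other list genes (*Gnai3*, *Rgs1*, *Ly6g* and markers below the 3 highest) were named after their values were seen. Python 3.11.15, numpy 2.4.6, pandas 2.3.3 and matplotlib 3.10.9 were used.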

Additional observations from a re-analysis of the deposited data

How the results depend on the processing

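With every length and filter tried, 9 of the 10 receptors lay above the 75th percentile of all genes, and *C3ar1* was the exception. The median level of the 10 was 15445 without length division and 14888 per kb of coding length. The median percentile, 96.8 on the scale used above, was 95.1 without length division, 94.2 per kb of coding length and 96.3 per kb of the principal transcript, a setting chosen after seeing the data. It was 96.8 among genes with a mean of at least 10 and 96.1 among those with a mean of at least 100. *C3ar1* ranged from the 33.4th to the 53.0th percentile. The order of the receptors changed with length, since *Cxcr2* stood first without length division and per kb of coding length and *Cxcr4* per kb of transcript, and *Ptafr* moved from the ninth place per kb of transcript to the fifth without length division and per kb of coding length. Per kb of the principal transcript, *Rgs1* stood at 188, *Ly6c2* at 32214 and *Ms4a2* at 587, all well above the levels on the longest transcript. No paired analysis was possible because the columns used carry no replicate numbers. For the same reason no replicate could be left out, and the precision of each mean is unknown.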
